A study of Mus musculus with 9 samples.

Results

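The livers of 3 mice that flew with an onboard centrifuge (A1G) were set against those of all 6 other mice of the study. These were the flown mice without centrifugation (MG) and the controls on Earth (GC). The comparison asked which transcripts were at a level of their own in A1G mice. Members were chosen by their group label alone, which gave 3 of 9 libraries, and 13193 of 34866 listed genes were tested. A1G mice were kept on the International Space Station for 30 days in cages spun to 1 g, MG mice spent the same 30 days there in microgravity, and GC mice stayed on the ground. All 9 were wild-type male C57BL/6J mice, purchased young. Each library was made from poly(A) RNA of a homogenised piece of liver. Several features limit A1G as a model of normal gravity in orbit. These mice were also weightless during transfer to and from the station, met hypergravity at launch and landing, and were dissected on Earth only after transport. The GC experiment was run at another site and in another season with lower CO2. For GC the flight thus cannot be told apart from site and date, whereas A1G and MG shared one mission.

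The liver holds the body's main programmes of fasting and feeding. Glucagon and glucocorticoids, which are high in fasting or stress, switch on gluconeogenesis and the release of stored lipid. Insulin switches on glycolysis and fat synthesis, and the transcription factor SREBP-2 switches on the mevalonate pathway when cell cholesterol is low. Fatty acids activate the nuclear receptor PPARα, which drives peroxisomal and mitochondrial fatty acid oxidation, and foreign compounds act through CAR, PXR and NRF2 on cytochromes P450 and glutathione transferases.

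Library totals ranged from 13189515 to 23738049 estimated counts. The 8 hepatocyte markers summed to 73365-80310 CPM in A1G, 70447-81975 CPM in MG and 79736-84963 CPM in GC livers (CPM, counts scaled to a fixed library total after TMM normalisation), and the 12 Kupffer cell and macrophage markers to 227-368, 246-270 and 258-360 CPM in the same order of groups. Of 13 marker lists, none had a sum that differed between A1G and the other 6 libraries after adjustment. With so few libraries, 1 list alone could not pass even at full separation, so this cannot decide whether composition differed. At unadjusted p under 0.05, 3 of the 8 hepatocyte markers were lower and none higher. Higher were 2 of 10 tested markers of sinusoidal endothelial cells, 2 of 11 of stellate cells and fibroblasts, and 2 of 7 of cholangiocytes. Lower were 1 of 3 tested markers of B cells and the 1 tested marker of the exocrine pancreas. Of all genes tested, 4.33% were higher and 3.93% lower at that p. The part of these markers in the gene lists was not tested. The smallest raw p of a sum was 0.0119, which is the lowest that an exact two-sided permutation test can reach here (adjusted p = 0.155 over the 13 lists). It belonged to 7 skeletal muscle markers, whose sum was 1.16-1.21 CPM in A1G, 0.147-0.732 CPM in MG and 0.781-0.826 CPM in GC livers, with Mb and Myh4 at 0, and its part in the results was not tested. In homogenised tissue, fewer cells of a type and less RNA per cell cannot be told apart. A1G replicate 1 had 443 genes at least 2-fold from the mean of the other libraries of its group, against 196 to 406 in the other 8 libraries, whereas the lowest mean correlation with its group was that of GC replicate 3 (r = 0.971, and 0.974 for A1G replicate 1).

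Only 1 transcript passed the test of A1G against the mean of MG and GC, and it fell. Lpin1 encodes lipin 1, a phosphatidate phosphatase of triglyceride synthesis that also acts in the nucleus as a coactivator of fatty acid oxidation genes, and it is induced in fasted liver by glucagon and glucocorticoids. The gene (ENSMUSG00000020593.15, protein coding) lies on the minus strand of chromosome 12, at 16535669 to 16610966 of GRCm38. Its level was 35.4, 54.9 and 62.6 CPM in A1G livers, 210, 176 and 162 CPM in MG livers and 257, 310 and 175 CPM in GC livers. All 3 A1G libraries thus lay far below the lowest of the other 6, and the groups did not overlap. The log2 fold change was -2.06 ± 0.22 (SE), with an adjusted p of 0.0106 in edgeR's quasi-likelihood test with Benjamini-Hochberg adjustment over all 13193 genes. Taken separately in the same fit, Lpin1 also fell against MG by 1.84 ± 0.23 (adjusted p = 0.0402) and against GC by 2.28 ± 0.24 (adjusted p = 0.00481). Without GC replicate 1 or without A1G replicate 2 the log2 fold change stayed at -2.04 and -2.11, but the adjusted p was 0.0517 and 0.055. The pairwise tests called 10 genes (0.0758% of those tested) against MG and 85 (0.644%) against GC, and MG against GC, which tests whether the 2 pairwise changes of a gene differ, called 439 (3.33%). For Lpin1 that difference was -0.44 ± 0.23 (adjusted p = 0.331).

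Lpin1 was the only call, 0.00758% of the genes tested, and no gene passed on the higher side. When a gene had to differ from MG and from GC separately and in the same direction, none passed after adjustment (3 with DESeq2), and Lpin1 had an adjusted p of 0.0705. Without adjustment, 1090 genes had p under 0.05 in the main comparison (8.26%), 571 higher (4.33%) and 519 lower (3.93%). Of all genes, 218 (1.65%) differed from both groups in 1 direction, 92 higher (0.697%) and 126 lower (0.955%). In 432 genes (3.27%) all 3 A1G libraries lay outside the range of the other 6, above it in 201 (1.52%) and below it in 231 (1.75%). The 1090 genes of unadjusted p under 0.05 were made up mostly of genes that differed from only 1 of the 2 groups, 499 from GC alone and 315 from MG alone. DESeq2 on the same counts called 111 genes (0.842%), 43 higher (0.326%) and 68 lower (0.516%). Of these 111, 80 differed from both groups at unadjusted p under 0.05. Since 1 gene passed the main test, the genes and lists that follow are described by their values with the tests beside them. Of the 13193 genes tested, 6448 had a log2 fold change below 0. With A1G replicate 1 left out, 434 genes were higher and 382 lower at unadjusted p under 0.05, against 571 and 519 with all libraries. This fall over all genes belongs beside the list counts given without that library. For other libraries left out, counts over all genes are not given here.

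Beside Lpin1, the 14 genes of smallest p on the lower side had log2 fold changes between -2.22 and -0.54 and adjusted p of 0.0997 to 0.213. In 12 of the 14 no A1G library reached the lowest of the other 6, as in 1.75% of all genes, Tcim and Arhgef26 being the exceptions. The 14 were picked by small p of this same contrast, so little overlap follows from the choice. Rgs16, a regulator of G-protein signalling whose liver transcript follows feeding time, had 17.6, 14.5 and 13.8 CPM in A1G livers, 76.8, 58.8 and 142 CPM in MG livers and 84.2, 52.1 and 29.5 CPM in GC livers. Its log2 fold change was -2.22 ± 0.35 (adjusted p = 0.0997), and against MG alone it fell by 2.59 ± 0.38 (adjusted p = 0.0412). GC replicate 3 was the lowest of the other 6 libraries for Rgs16, so leaving it out widens the difference. Without it Rgs16 passed the main test (log2 fold change -2.37, adjusted p = 0.0399). Over all alternatives run, the adjusted p of Rgs16 ranged from 9.2e-07 to 0.545. Lpin2, the second liver lipin, had 113, 134 and 134 CPM in A1G, 190, 160 and 214 CPM in MG and 253, 225 and 244 CPM in GC livers. Here the MG libraries lay between the other groups, and the fall against GC passed the test (log2 fold change -0.93 ± 0.13, adjusted p = 0.0137). Against MG the change was -0.57 ± 0.13 (adjusted p = 0.133). Egfr, the receptor of epidermal growth factor, had 217, 238 and 263 CPM in A1G, 561, 671 and 282 CPM in MG and 611, 667 and 446 CPM in GC livers. MG replicate 3 came close to the A1G values. With all 9 libraries the log2 fold change of Egfr was -1.17 ± 0.24 (adjusted p = 0.207). Leaving out MG replicate 3, the library nearest to A1G, widens the difference. Without it Egfr passed the main test (log2 fold change -1.31, adjusted p = 0.00986). Over all alternatives run, the adjusted p of Egfr ranged from 8.1e-05 to 0.545. Ubb, a polyubiquitin gene, had 427, 358 and 386 CPM in A1G, 605, 657 and 713 CPM in MG and 570, 455 and 459 CPM in GC livers. Rnase4 and Ang, secreted ribonucleases, had log2 fold changes of -0.67 ± 0.13 and -0.63 ± 0.13, but these genes overlap on chromosome 14 and reads of one cannot always be told from those of the other.

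**Figure D1:**
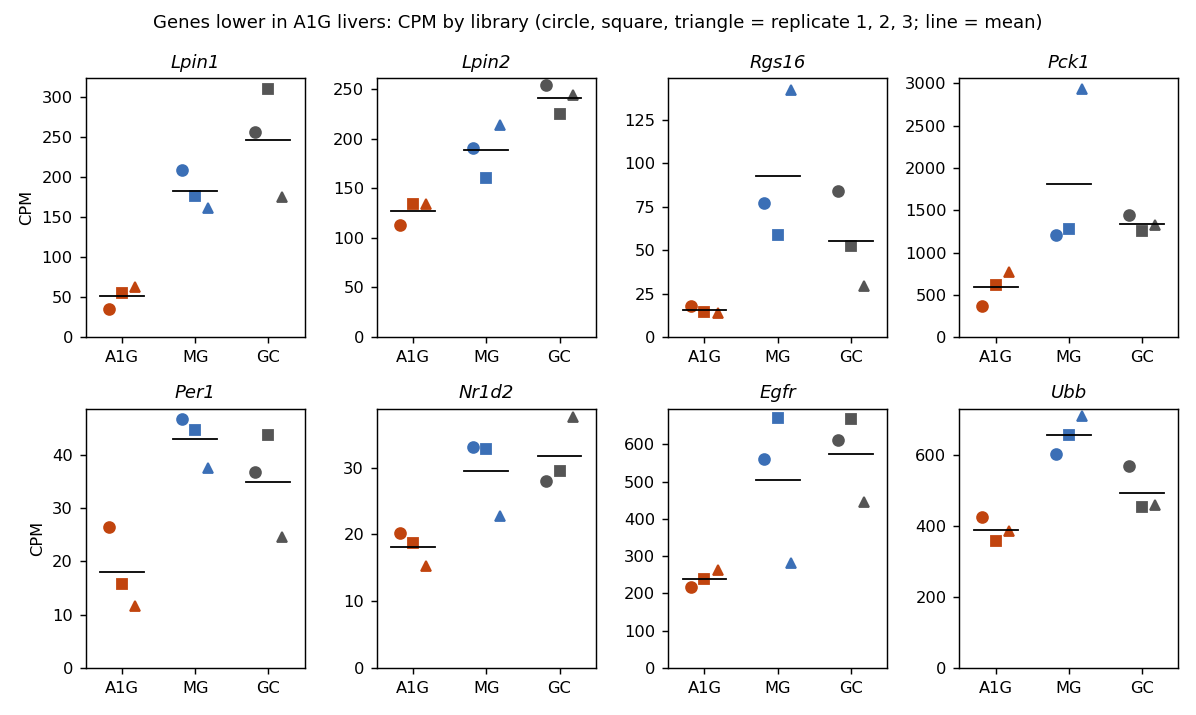
CPM (linear axis from 0) of 8 genes that were lower in A1G livers, by library, with A1G (orange) left of MG (blue) and GC (grey), each symbol a replicate and each line a group mean. For Lpin1 the A1G libraries sit between 35.4 and 62.6 CPM and the other 6 between 162 and 310 CPM, whereas for Per1 the groups overlap.

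Genes of gluconeogenesis and fasting lay mostly on the lower side in A1G livers. Of 23 listed genes, all measured, 21 had a log2 fold change below 0 and 8 had an unadjusted p under 0.05, all 8 lower (34.8%, against 3.93% of all genes tested). Only Lpin1 passed after adjustment with edgeR, and DESeq2 called 4, all lower (0.516% of all genes). The median log2 fold change was -0.27, with 0.0051 over all genes tested, and it was -0.20 against MG and -0.42 against GC. The median against MG was -0.10 without A1G replicate 1, and without A1G replicate 2 the main one was -0.41. Feeding-induced glycolysis and insulin genes, of the opposite programme, also lay mostly below 0. Of 17 measured, 12 were below 0, with 4 lower and 1 higher at unadjusted p under 0.05 (23.5% and 5.88%, against 3.93% and 4.33% of all genes). Their median was -0.15, with 0.0033 against MG and -0.29 against GC. Without A1G replicate 1 they had 3 lower, 0 higher and a median of -0.11. Pck1, which encodes the cytosolic phosphoenolpyruvate carboxykinase of gluconeogenesis, had 372, 617 and 775 CPM in A1G livers, 1208, 1280 and 2931 CPM in MG livers and 1438, 1259 and 1321 CPM in GC livers. No A1G library reached any of the other 6 (log2 fold change -1.40 ± 0.30, adjusted p = 0.217). Igfbp1, a secreted IGF-binding protein repressed by insulin, had its highest values in MG, with 7.76, 10.2 and 21.3 CPM in A1G, 53.9, 24.6 and 108 CPM in MG and 21.2, 14.0 and 20.7 CPM in GC livers.

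Glucocorticoid-responsive genes, a list that shares Per1 and other members with that of gluconeogenesis and fasting, were also mostly below 0. Of 20 measured, 17 were below 0, and the median was -0.38. At unadjusted p under 0.05, 9 were lower and 1 higher (45.0% and 5%, against 3.93% and 4.33% of all genes). None passed after adjustment with edgeR, and DESeq2 called 4, all lower (0.516% of all genes). Per1, a clock component with glucocorticoid response elements, had 26.4, 15.7 and 11.7 CPM in A1G livers, 46.8, 44.7 and 37.5 CPM in MG livers and 36.7, 43.7 and 24.5 CPM in GC livers. Only A1G replicate 1 exceeded the lowest GC library. Tsc22d3, which encodes the glucocorticoid-induced leucine zipper GILZ, had 67.6, 86.7 and 63.2 CPM in A1G, 83.3, 97.9 and 124 CPM in MG and 158, 181 and 117 CPM in GC livers. It fell against GC (log2 fold change -1.07 ± 0.19, adjusted p = 0.036), with -0.49 ± 0.19 against MG (adjusted p = 0.443). Zbtb16, a zinc finger repressor induced by glucocorticoids, had 19.1, 14.4 and 18.3 CPM in A1G, 37.7, 28.1 and 19.5 CPM in MG and 45.6, 51.0 and 27.9 CPM in GC livers. Its fall against GC was just inside the threshold (-1.27 ± 0.25, adjusted p = 0.0498). Errfi1, a feedback inhibitor of EGFR, had a log2 fold change of -0.66 ± 0.16 that came from MG (-1.0 ± 0.18) more than from GC (-0.32 ± 0.18). As a mean over the list, GC replicate 3 was as low as the A1G libraries, at -0.56 on the log2 scale relative to the mean of MG and GC, with -0.40, -0.41 and -0.54 in A1G. The list thus did not separate A1G from every GC mouse.

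Circadian clock genes were spread to both sides. Of 20 clock genes, 8 were above and 12 below 0, with a median of -0.06 (-0.15 to -0.0048 when 1 library was left out). The 3 with an unadjusted p under 0.05 (15%) were Nr1d2, Per1 and Nfil3, all lower, against 3.93% of all genes on that side. Nr1d2, which encodes the repressor REV-ERBβ, had 20.2, 18.7 and 15.2 CPM in A1G livers, 33.0, 32.9 and 22.8 CPM in MG livers and 28.0, 29.6 and 37.6 CPM in GC livers, without overlap (log2 fold change -0.76 ± 0.15, adjusted p = 0.207). Its log2 fold changes against MG and GC were -0.72 ± 0.17 and -0.81 ± 0.17, and MG differed from GC by -0.10 (adjusted p = 0.816).

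Cholesterol synthesis and uptake genes were the only list of 34 with every measured member on 1 side. All 24 were measured and all 24 had a log2 fold change below 0 (22 with library sizes alone, 21 with limma on log2 TPM and 23 without A1G replicate 1). Of these, 17 had an unadjusted p under 0.05 (70.8%, against 3.93% of all genes tested), but none passed after adjustment with edgeR, while DESeq2 called 10, all lower (0.516% of all genes). The 17 became 11 without A1G replicate 1, and also without A1G replicate 3. The median was -0.45, and 10 of the 24 were lower than both MG and GC at unadjusted p under 0.05, where 0.955% of all genes were. In 8 the A1G libraries did not overlap with the other 6 (1.75% of all genes on the lower side). Idi1, the isomerase that makes dimethylallyl diphosphate, had 122, 154 and 130 CPM in A1G livers, 281, 237 and 294 CPM in MG livers and 199, 231 and 176 CPM in GC livers. MG was the highest group, and the fall against MG passed (log2 fold change -1.0 ± 0.14, adjusted p = 0.0402) with -0.57 ± 0.14 against GC (adjusted p = 0.0981).

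Later steps of the pathway lay on the same side. Cyp51, the lanosterol demethylase, had 113, 125 and 128 CPM in A1G, 191, 162 and 200 CPM in MG and 170, 177 and 162 CPM in GC livers (log2 fold change -0.54 ± 0.10, adjusted p = 0.207). Nsdhl, a sterol dehydrogenase of the following demethylation steps, had 30.8, 32.7 and 33.2 CPM in A1G, 49.1, 44.4 and 46.4 CPM in MG and 72.0, 55.3 and 46.3 CPM in GC livers. In both genes the 3 A1G libraries lay within a narrow range below all others, and Nsdhl also fell against GC (-0.85 ± 0.15, adjusted p = 0.034). Sqle, the squalene epoxidase, had 50, 76.6 and 65.3 CPM in A1G, 129, 76.4 and 96.3 CPM in MG and 125, 129 and 105 CPM in GC livers. It touched MG in 1 library. Not every member stood below MG. In Dhcr7, Pmvk and Sc5d, named after their values were seen, A1G exceeded MG by 0.23, 0.49 and 0.27 on the log2 scale while lying below GC by 0.89, 0.89 and 0.50. The differences from GC passed for Dhcr7 (adjusted p = 0.0367) and Pmvk (adjusted p = 0.0316). By library, the mean over the list was -0.63, -0.28 and -0.48 in A1G, -0.06, -0.35 and 0.04 in MG and 0.20, 0.14 and 0.03 in GC livers. MG replicate 2 thus lay below A1G replicate 2.

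**Figure D2:**
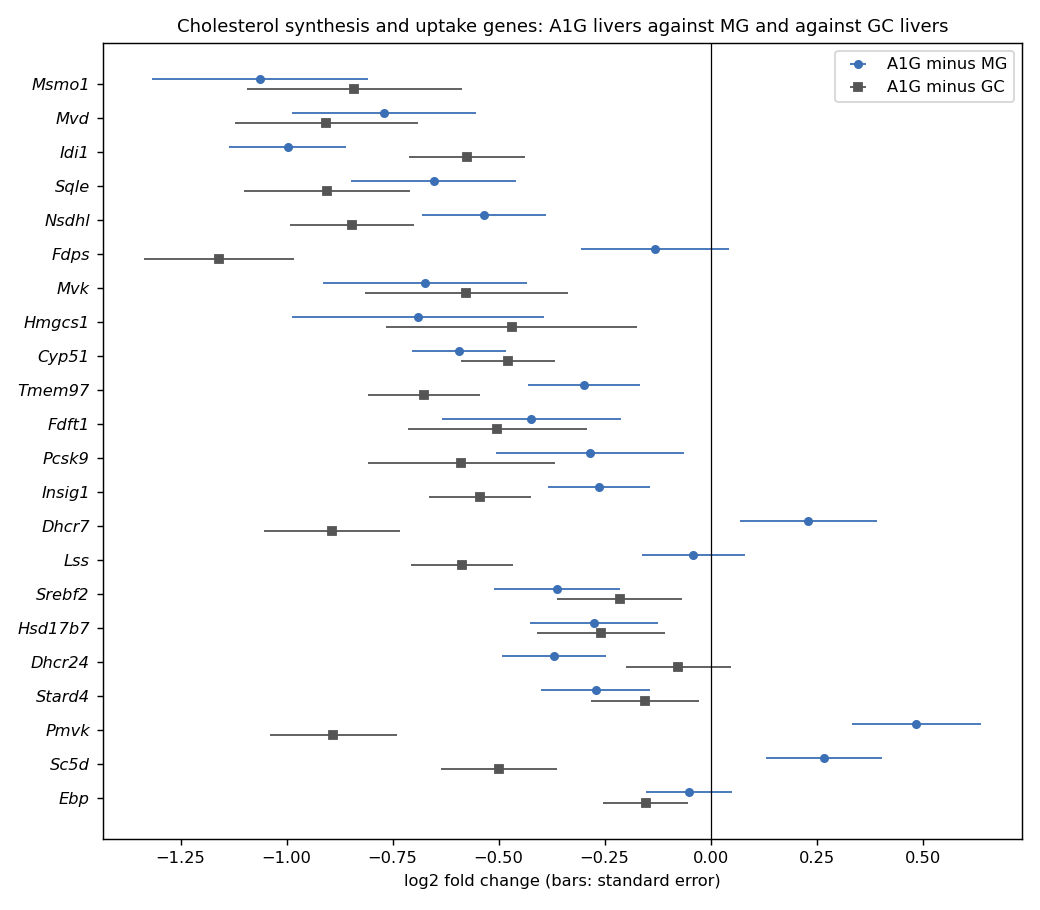
Log2 fold changes (horizontal axis, bars are standard errors) of 22 of the 24 cholesterol synthesis and uptake genes in A1G livers against MG (blue circles) and against GC (grey squares), ordered by the main comparison. The median over all 24 was -0.33 against MG and -0.58 against GC, and Dhcr7, Pmvk and Sc5d have their blue circles above 0.

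SREBP-2 acts on these genes together with the factor NF-Y, which binds the CCAAT box. The 250 bases before the RefSeq start (GRCm38.p6) are shown for Lpin1, as the single call, and for Mvd and Hmgcs1, which encode the decarboxylase and the synthase of the mevalonate pathway and whose windows overlap no annotated exon (both chosen after their values were seen). Capitals mark CCAAT on either strand, and in Hmgcs1 also a match to the sterol response element TCACNCCAC.
Lpin1, chr12:16610967-16611216, minus strand: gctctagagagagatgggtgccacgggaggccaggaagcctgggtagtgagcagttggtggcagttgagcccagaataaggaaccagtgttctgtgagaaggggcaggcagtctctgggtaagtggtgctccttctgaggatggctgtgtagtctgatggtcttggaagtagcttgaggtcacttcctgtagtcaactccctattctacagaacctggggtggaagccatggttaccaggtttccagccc
Mvd, chr8:122443423-122443672, minus strand: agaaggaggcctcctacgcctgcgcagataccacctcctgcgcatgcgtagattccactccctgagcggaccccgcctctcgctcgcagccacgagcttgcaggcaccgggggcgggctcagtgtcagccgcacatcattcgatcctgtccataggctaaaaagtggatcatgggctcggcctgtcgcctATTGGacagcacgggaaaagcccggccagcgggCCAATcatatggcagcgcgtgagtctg
Hmgcs1, chr13:119690101-119690350, plus strand: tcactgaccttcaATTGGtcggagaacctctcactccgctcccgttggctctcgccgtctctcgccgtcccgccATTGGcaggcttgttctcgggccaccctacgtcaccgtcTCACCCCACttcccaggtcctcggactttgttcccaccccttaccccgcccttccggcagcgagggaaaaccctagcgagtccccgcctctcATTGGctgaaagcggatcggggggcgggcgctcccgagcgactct
Mvd held CCAAT boxes that began 60 and 27 bases before the start, and Hmgcs1 held 3, at 237, 176 and 45 bases, with the sterol element at 137 bases. Of the 24 genes of the list, 16 had an entry among the RefSeq windows and all 16 held CCAAT or its reverse complement in at least 1 window, against 37.5% of 27025 genes with an entry. The share was also above 37.5% in glucocorticoid-responsive (64.7%), clock (64.7%) and PPARα target genes (46.2%). The lists differ in windows per gene. Counted by window, the shares were 84.2% in the cholesterol list, 48.1%, 63.6% and 41.9% in these 3, and 33.8% over all windows. The 27025 genes were not limited to those tested for expression. A match to TCACNCCAC was found in 1 of the 16, against 1.22% of all. The Lpin1 window held neither of these motifs, nor the E-box CACGTG (6.86% of all genes), the palindromic glucocorticoid response element (0.44%) or the direct-repeat peroxisome proliferator response element (0.4%), each searched on both strands. In expression, Mvd had 21, 23.0 and 14.2 CPM in A1G, 35.8, 31.0 and 32.5 CPM in MG and 47.9, 34.5 and 26.5 CPM in GC livers, without overlap. Hmgcs1 had 115, 164 and 152 CPM in A1G, 180, 139 and 376 CPM in MG and 225, 167 and 204 CPM in GC livers, with overlap.

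On the higher side, 6 of the 15 genes of smallest p were listed PPARα targets, a list that held 34 of the 13193 genes tested. The 15 were ranked by p in these same data, and the list was chosen with earlier results known. Of the 15, 12 had their highest value in A1G replicate 1. Of 34 measured PPARα target genes, 30 were above 0 and 15 had an unadjusted p under 0.05 on the higher side (44.1%, against 4.33% of all genes tested), with Angptl4 alone on the lower side. None passed after adjustment with edgeR, DESeq2 called 7, all higher (0.326% of all genes), and the median log2 fold change was 0.30. Ehhadh, the peroxisomal bifunctional enzyme, had 3303, 411 and 543 CPM in A1G livers, 335, 209 and 226 CPM in MG livers and 268, 249 and 245 CPM in GC livers. All A1G libraries were above the other 6, but replicate 1 was 6.93-fold above the mean of the other two A1G libraries. The log2 fold change of 2.47 ± 0.49 became 0.91 without it. Acot1, a cytosolic acyl-CoA thioesterase, had 295, 139 and 126 CPM in A1G livers, 104, 77.8 and 100 CPM in MG livers and 79.9, 67.2 and 57.8 CPM in GC livers, again without overlap (log2 fold change 1.22 ± 0.23, and 0.73 without A1G replicate 1). It rose against GC (1.45 ± 0.28, adjusted p = 0.0463), and the change against MG was 0.99 ± 0.28 (adjusted p = 0.25). Without A1G replicate 1, the list had 9 genes on the higher side at unadjusted p under 0.05 and a median of 0.17.

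Within this list MG and GC differed for some genes. Cyp4a14, a fatty acid hydroxylase, had 6483, 1084 and 1275 CPM in A1G livers, 2103, 1626 and 2427 CPM in MG livers and 160, 128 and 127 CPM in GC livers. Of the A1G libraries 2 were below all MG libraries, and all 3 were above every GC library. Cyp4a14 rose against GC (log2 fold change 4.41 ± 0.60, adjusted p = 0.0137), the change against MG was 0.52 ± 0.52 (adjusted p = 0.847), and MG itself differed from GC by 3.89 (adjusted p = 0.00434). Without A1G replicate 1 Cyp4a14 passed the main test (log2 fold change 1.15, adjusted p = 0.0382). The 2 A1G libraries left then lay below all MG libraries, so this pass rested on the difference from GC. Acaa1b, a peroxisomal thiolase, showed the other pattern, with 3407, 1715 and 1367 CPM in A1G, 702, 526 and 630 CPM in MG and 1532, 982 and 1339 CPM in GC livers. It overlapped with GC. Angptl4, a secreted inhibitor of lipoprotein lipase that both PPARα and glucocorticoids induce, was on the lower side. It had 55.9, 42.6 and 37.7 CPM in A1G, 64.6, 58.7 and 133 CPM in MG and 113, 101 and 74.3 CPM in GC livers (log2 fold change -1.0 ± 0.25, adjusted p = 0.281). Cyp4a genes are close copies of each other, and the share of reads assigned to each is uncertain.

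**Figure D3:**
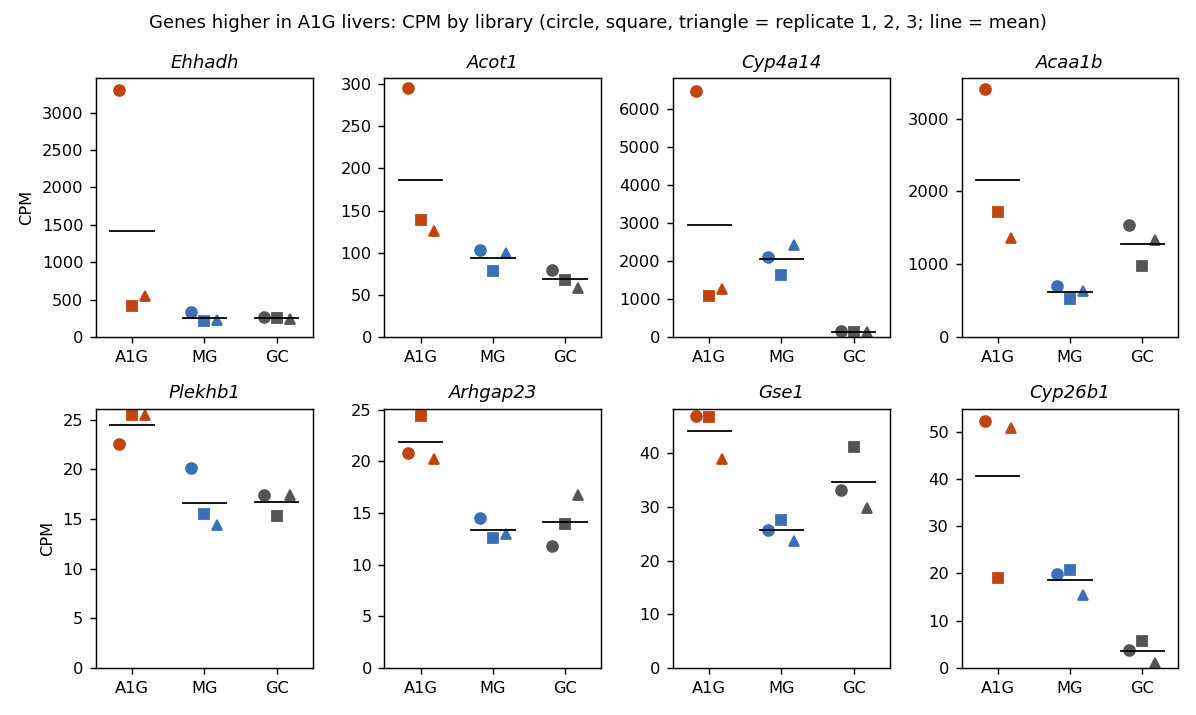
CPM (linear axis from 0) of 8 genes that were higher in A1G livers, by library, with A1G (orange) left of MG (blue) and GC (grey), each symbol a replicate and each line a group mean. A1G replicate 1 (circle) stands at 3303 CPM for Ehhadh against 411 and 543 CPM in the other A1G libraries, and for Cyp4a14 the MG libraries lie with A1G, far above GC.

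NRF2 and glutathione genes were also highest in A1G replicate 1. Of 29 NRF2 and thiol redox genes, 11 had an unadjusted p under 0.05, all higher (37.9%), with a median of 0.23. Of 30 genes of glutathione synthesis and glutathione transferases, 12 were higher and 1 lower (40.0% and 3.33%), with a median of 0.15. Of all genes tested, 4.33% were higher and 3.93% lower. DESeq2 called 3 of the first list, all higher (0.326% of all genes), and none of the second. Without A1G replicate 1 the first list had 6 on the higher side with a median of 0.02 (7 without GC replicate 3, and a median of 0.36 without A1G replicate 2), and the second had 1 with a median of 0.10 (0.25 without A1G replicate 3). Gsta1, an alpha-class glutathione transferase, had 33.4, 2.66 and 2.12 CPM in A1G, 0.693, 0.735 and 0.66 CPM in MG and 1.22, 0.826 and 0 CPM in GC livers. Its counts were low, reads can be shared with close copies of the gene, and replicate 1 was 13.9-fold above the mean of the other A1G libraries. Ephx1, the microsomal epoxide hydrolase, likewise had 728, 229 and 281 CPM in A1G, 217, 166 and 206 CPM in MG and 198, 137 and 197 CPM in GC livers. Aox1, Srxn1, Gsta2, Gsta4 and Mgst3 all had their highest value in A1G replicate 1. In Srxn1 the other two A1G libraries, at 39.1 and 40.3 CPM, lay within the MG range of 38.1 to 45.6 CPM. Methionine, cysteine and taurine genes had 2 of 26 higher and 4 lower at unadjusted p under 0.05, with a median of -0.18. These were 7.69% and 15.4% of the list, against 4.33% and 3.93% of all genes. Leaving out A1G replicate 1 gave 1 higher and 3 lower with a median of -0.098, and the count lower was 10 without A1G replicate 2 and 8 without GC replicate 3.

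Some of the higher genes did not rest on replicate 1. Plekhb1, a membrane protein with a pleckstrin homology domain, had 22.6, 25.4 and 25.5 CPM in A1G livers, 20.1, 15.5 and 14.4 CPM in MG livers and 17.4, 15.3 and 17.4 CPM in GC livers, without overlap. Its log2 fold changes against MG and GC were 0.56 ± 0.14 and 0.55 ± 0.14, and the main one of 0.55 ± 0.12 (adjusted p = 0.217) became 0.61 without A1G replicate 1. Arhgap23, a GTPase-activating protein, had 20.8, 24.4 and 20.2 CPM in A1G, 14.5, 12.6 and 13 CPM in MG and 11.8, 13.9 and 16.8 CPM in GC livers, also without overlap (0.67 ± 0.13, and 0.70 without A1G replicate 1). Cyp26b1, which degrades retinoic acid, had 52.2, 19.1 and 50.8 CPM in A1G, 19.8, 20.6 and 15.5 CPM in MG and 3.71, 5.65 and 1.12 CPM in GC livers. Here A1G replicate 2 lay with MG. Cyp26b1 rose against GC (3.51 ± 0.46, adjusted p = 0.0137), and its main log2 fold change was 2.32 ± 0.35 (adjusted p = 0.0997). Leaving out A1G replicate 2, the lowest A1G library, widens the difference. Without it Cyp26b1 passed the main test (log2 fold change 2.66, adjusted p = 0.0364). Over all alternatives run, its adjusted p ranged from 4.8e-07 to 0.733. Gse1 had 47.1, 46.8 and 38.9 CPM in A1G, 25.6, 27.7 and 23.7 CPM in MG and 33.2, 41.1 and 29.9 CPM in GC livers. For Gse1 1 GC library was within the A1G range.

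CAR and PXR target genes had a median above GC and below MG. Of 24 measured, 7 were higher and 1 lower at unadjusted p under 0.05 (29.2% and 4.17%, against 4.33% and 3.93% of all genes). The median of 0.14 split into -0.21 against MG and 0.49 against GC. DESeq2 called 2, both higher (0.326% of all genes). The 7 became 4 without A1G replicate 1, without A1G replicate 3 the median was 0.041, and without MG replicate 1 that against MG was -0.094. Cyp2c29 had 1057, 1083 and 1122 CPM in A1G livers, 1120, 1035 and 760 CPM in MG livers and 575, 520 and 499 CPM in GC livers. Cyp2b10, the classical CAR target, had 2.87, 2.41 and 4.84 CPM in A1G, 2.08, 3.13 and 4.03 CPM in MG and 0.44, 0.367 and 0.293 CPM in GC livers. Close copies of it exist. Both rose against GC (1.03 ± 0.14, adjusted p = 0.0148, and 3.17 ± 0.41, adjusted p = 0.0137) with changes of 0.16 ± 0.14 and 0.14 ± 0.34 against MG. MG differed from GC in both (0.87, adjusted p = 0.00729, and 3.03, adjusted p = 0.00266). Outside this list, Abcc3, a bile salt and conjugate exporter, and Crat, carnitine acetyltransferase, also rose against GC (0.96 ± 0.16, adjusted p = 0.0313, and 0.85 ± 0.14, adjusted p = 0.0316).

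Other lists had A1G between the 2 groups. For de novo lipogenesis genes the A1G median was 0.72 above MG and 0.95 below GC on the log2 scale, with -0.14 in the main comparison, which turned to 0.0055 without A1G replicate 1. By library, the list mean was -0.35, 0.15 and -0.07 in A1G, -1.05, -0.92 and -1.01 in MG and 0.98 to 1.0 in GC livers, with no library of 1 group reaching another. Male-biased liver genes had medians of 0.53 (0.31 without A1G replicate 2) against MG and -0.83 against GC, and chaperones of the endoplasmic reticulum -0.39 and 0.40. By library, A1G replicate 1 overlapped with MG in both lists. Its male-biased list mean was -0.70, with -0.87, -0.53 and -0.88 in MG livers. Its chaperone list mean was 0.22, above the 0.15 of MG replicate 3. Pklr, the liver pyruvate kinase induced by feeding, had 112, 231 and 212 CPM in A1G, 92.8, 131 and 160 CPM in MG and 649, 674 and 601 CPM in GC livers. It fell against GC (-1.79 ± 0.25, adjusted p = 0.0149). Srebf1, the lipogenic SREBP gene, had 392, 359 and 329 CPM in A1G, 310, 208 and 140 CPM in MG and 302, 282 and 323 CPM in GC livers. Each A1G library was above all others (log2 fold change 0.48 ± 0.19, adjusted p = 0.526).

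Acute phase proteins lay mostly on the lower side, by small amounts. Of 30 measured, 24 were below 0. In all, 14 were lower and 1 higher at unadjusted p under 0.05 (46.7% and 3.33%, against 3.93% and 4.33% of all genes). The median was -0.32, and DESeq2 called 3, all lower (0.516% of all genes). Fgg, the fibrinogen gamma chain, had 2046, 2475 and 2541 CPM in A1G livers, 3161, 3088 and 3419 CPM in MG livers and 2786, 3100 and 2866 CPM in GC livers, without overlap (-0.38 ± 0.11, adjusted p = 0.367). Il1r1, the interleukin-1 receptor, had 28.7, 23.9 and 26.1 CPM in A1G, 44.4, 34.3 and 33.7 CPM in MG and 43.4, 54.2 and 34.7 CPM in GC livers, also without overlap (-0.63 ± 0.15, adjusted p = 0.251). Without A1G replicate 1 the list had 7 genes on the lower side and a median of -0.22. As a list mean, GC replicate 3, at -0.44, lay below all A1G libraries (-0.39, -0.25 and -0.13).

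**Figure D4:**
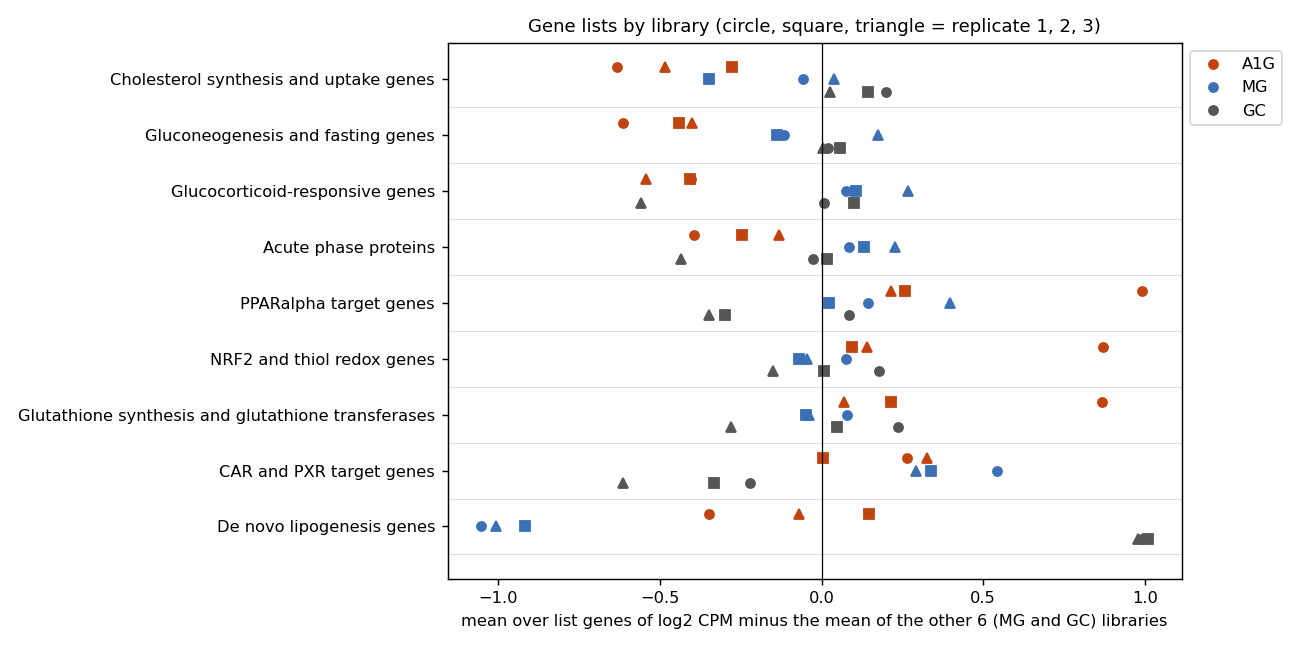
Mean over each gene list of log2 CPM minus the mean of MG and GC (horizontal axis), 1 symbol per library, for A1G (orange), MG (blue) and GC (grey) from top to bottom in each row. Fasting genes hold all 3 A1G libraries below the other 6, A1G replicate 1 (circle) stands apart for PPARα, NRF2 and glutathione genes, and for lipogenesis A1G lies between MG and GC.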

How the data were processed

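Poly(A) RNA from 9 mouse livers, 3 per group, was sequenced with a stranded kit. The authors processed reads with fastp 0.19.4 and Salmon 0.9.1 on GRCm38, according to the submitters' processing notes, and the annotation release is not given in the sources used here. They deposited estimated counts per gene, of which 17.1% were not whole numbers, and TPM values. Deposited columns holding the authors' own DESeq2 comparisons were not used. Gene names matched 34582 of 34866 identifiers.

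Estimated counts were rounded, filtered with filterByExpr (minimum count 10; 13193 genes, 99.9% of counts), scaled by TMM and fitted in 1 model of the 3 groups with the quasi-likelihood test of edgeR 4.0.16 (R 4.3.3), with Benjamini-Hochberg adjustment and a threshold of 0.05. The contrast was A1G minus the mean of GC and MG. A gene was also tested against each group, taking the larger p, or 1 where the directions differed. Named genes were those called, the 15 per direction of smallest p among genes averaging 50 counts or more, and up to 5 per gene list, plus those marked as chosen later; 2 genes of the cholesterol list count in its totals but are not reported here. The 34 gene lists and 13 marker lists, and the group itself, were chosen with earlier results of these data known, and motifs were chosen after the data were seen. Alternatives used DESeq2 1.42.0, limma 3.58.1 on log2(TPM + 1) and on log2(TPM + 0.1), other scalings and filters, and each replicate left out. Nothing in the labels says more of the mice than that they were separate samples, and p-values measure the spread between these. The scripts were tested on simulated data.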

Additional observations from a re-analysis of the deposited data

How the results depend on the processing

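Lpin1 was lower in A1G under every alternative run, with log2 fold changes from -1.79 to -2.22. Its call was lost with limma on log2(TPM + 1) without a filter (-1.79, adjusted p = 0.114), with robust empirical Bayes (-2.06, adjusted p = 0.0666), and without GC replicate 1 (-2.04, adjusted p = 0.0517) or A1G replicate 2 (-2.11, adjusted p = 0.055), and leaving out 1 replicate gave -1.85 to -2.22. The count of calls was 1 in the main test, 120 of 20550 genes without a filter on low counts (64 higher and 56 lower, 117 of them among the 13193), 111 with DESeq2, 3 with limma on log2(TPM + 1) or log2(TPM + 0.1), 0 with limma without a filter and 0 with robust empirical Bayes, and the causes were not tested. Leaving out 1 replicate gave 0 to 4 calls, 0 without GC replicate 1, 3 without GC replicate 3 (Lpin1, Rgs16 and Gm5537), 2 without A1G replicate 1 (Lpin1 and Cyp4a14), 1 without A1G replicate 2 (Cyp26b1) and 4 without MG replicate 3 (Lpin1, Egfr, Nnt and Gm28437). Genes apart from both groups numbered 0 in the main test, 1 with library sizes alone, 1 with at least 10 counts in every library, 5 without a filter, 3 with DESeq2, and 0 to 1 when a replicate was left out (1 without GC replicate 3). With the replicate number as a block, 1 gene was called (Lpin1, -2.05, adjusted p = 0.0366). Deviations of same-numbered libraries from their group means had r of -0.0082 to 0.114, over 0.1 in 1 of 9 pairs. Between A1G and MG the same-numbered pairs had r of 0.114, 0.0586 and 0.0973, against -0.0882 to 0.00593 in the other pairs. The labels do not say that the numbers pair the mice. The deposited column names carry other numbers for A1G than for MG, so these groups do not share the replicate number there. Pairing was thus left out of the main test, and whether the numbers share a source was not tested. Library sizes alone moved the median of all genes to 0.12, and limma on TPM to 0.12 and 0.14. Of 65 named genes, 64 kept their direction throughout; Sc5d turned to 0.015 without A1G replicate 1 (range -0.19 to 0.015 when 1 replicate was left out). Of 34 gene lists, 14 kept the sign of their median in every setting.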

Other observations

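Urea cycle and amino acid catabolism genes lay below 0 in 33 of 38 cases, with a median log2 fold change of -0.17 in A1G against MG and GC. Of them, 11 had an unadjusted p under 0.05, with none on the higher side (28.9%, against 3.93% of all genes on the lower side). With A1G replicate 1 left out the list had 2 genes on the lower side and a median of -0.076, and the 11 became 3 once A1G replicate 3 was dropped and 7 once GC replicate 2, or instead MG replicate 2, was. Interferon-stimulated genes had no member of 38 at an unadjusted p under 0.05, and the A1G mice differed among themselves, with list means of -0.83, -0.12 and 0.45 on the log2 scale relative to the mean of MG and GC, against -0.55, -0.18 and 0.086 in MG and 0.45, 0.13 and 0.061 in GC livers. Without A1G replicate 3, 10 were lower with a median of -0.42, but the share over all genes in that setting is not given here. Without A1G replicate 1, 2 were higher with a median of 0.17, where 434 of all genes tested were higher. Growth hormone and IGF axis genes had 5 of 19 lower and none higher at an unadjusted p under 0.05 (26.3%, against 3.93% of all genes on the lower side). Their median was -0.13, and 2 of the 19 were called lower by DESeq2 (0.516% of all genes). When A1G replicate 1 was left out there were 2 higher and 5 lower, with a median of -0.030, and 2 were higher without MG replicate 3. Cytosolic ribosomal proteins (42 genes) and nuclear oxidative phosphorylation genes (46 genes) had no member at an unadjusted p under 0.05, with medians of -0.067 and -0.075. In these lists 36 and 37 genes were below 0, and 3 and 5 were lower at that p without GC replicate 3.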
